A study of Mus musculus with 9 samples.

Results

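The data of 8 genes were followed through this experiment, all of which mark fetal-like or regenerating intestinal epithelium or belong to the YAP pathway linked to that state. The rule that chose them names them and sets no threshold on their values: *Ly6a*, *Anxa1*, *Clu*, *Il1rn*, *Ccn1* (also called *Cyr61*), *Ccn2* (*Ctgf*), *Ankrd1* and *Yap1*. They are 8 of the 54838 gene identifiers in the expression files, and all 8 were found there. *Ly6a* also responds to interferon, so genes of the interferon response were read beside it.

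The data were bulk RNA-seq of organoids, that is, small epithelial cultures grown in gel from small intestinal crypts. The mice were *Vil-CreERT2*;*Mettl3* fl/fl (C57BL/6, males aged 2 to 4 months), and the medium was ENR. All 7 libraries carried the same floxed alleles of *Mettl3*, which encodes an enzyme that methylates adenosine in RNA, and the same tamoxifen-inducible Cre, driven by the villin promoter of gut epithelium. Per the labels and the methods, organoids received EtOH (ethanol, the vehicle) or 500 nM 4-OHT (4-hydroxytamoxifen, which activates the Cre) for 2 days, and DMSO or the RIPK1 inhibitor necrostatin-1 (Nec-1) for 5 days. Nec-1 was given at 5 µM in a description of parallel cultures and at 10 µM elsewhere in the methods, so its concentration here is uncertain. There were 2 libraries for each of the groups 4-OHT DMSO, EtOH DMSO and EtOH Nec-1, but only 1 for 4-OHT Nec-1. No group received 4-OHT without the Cre, so 4-OHT itself and the deletion cannot be told apart.

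After injury, intestinal epithelium can leave its usual stem cell program and take on features of the fetal gut, with high *Ly6a* (Sca-1), *Anxa1* and *Clu*. YAP, encoded by *Yap1*, is a transcriptional coactivator that is held in the cytoplasm when the Hippo kinases LATS1 and LATS2 phosphorylate it. When free, it enters the nucleus and acts with TEAD factors on genes such as *Ccn1*, *Ccn2* and *Ankrd1*. YAP activity is known to be needed for this regenerative state, in which crypt stem cell genes are held down for a time.

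The stretches before the start sites of *Ankrd1*, *Ccn1*, *Anxa1* and *Il1rn* are shown because the first pair are textbook YAP and TEAD targets and the other pair are fetal-like markers. Each is the 250 bases upstream of a RefSeq start site on GRCm38.p6, the assembly behind mm10, printed 5′ to 3′ on the strand of the gene. *Ankrd1* is at chr19:36119845-36120094 and *Ccn1* at chr3:145649986-145650235, both on the minus strand. *Anxa1* is at chr19:20390672-20390921 on the minus strand, and the first of the 3 *Il1rn* starts has chr2:24336610-24336859 on the plus strand. Capitals mark the TEAD letters GGAATG, read on either strand, and in *Il1rn* the AP-1 letters TGANTCA.
Ankrd1: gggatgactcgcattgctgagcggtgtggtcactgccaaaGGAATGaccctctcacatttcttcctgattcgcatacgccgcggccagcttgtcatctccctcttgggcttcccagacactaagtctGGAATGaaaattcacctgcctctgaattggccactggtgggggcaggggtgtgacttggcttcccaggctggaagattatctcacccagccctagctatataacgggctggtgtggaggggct
Ccn1: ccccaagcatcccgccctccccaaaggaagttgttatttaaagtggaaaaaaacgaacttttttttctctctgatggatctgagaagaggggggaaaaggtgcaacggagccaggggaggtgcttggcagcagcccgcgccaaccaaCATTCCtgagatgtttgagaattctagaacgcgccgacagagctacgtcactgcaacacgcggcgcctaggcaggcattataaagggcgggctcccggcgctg
Anxa1: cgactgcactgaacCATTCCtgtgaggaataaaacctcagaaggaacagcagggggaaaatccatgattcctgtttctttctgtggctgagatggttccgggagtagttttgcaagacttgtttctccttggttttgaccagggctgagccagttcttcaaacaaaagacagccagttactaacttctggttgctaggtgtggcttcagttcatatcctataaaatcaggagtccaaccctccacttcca
Il1rn: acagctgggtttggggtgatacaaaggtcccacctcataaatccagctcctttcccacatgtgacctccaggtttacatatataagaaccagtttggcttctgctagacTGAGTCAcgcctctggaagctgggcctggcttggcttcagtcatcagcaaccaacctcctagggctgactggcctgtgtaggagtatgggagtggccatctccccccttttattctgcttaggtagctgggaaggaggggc

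RefSeq windows were matched for 5 of the 8 genes, the fifth being *Yap1*, and none was matched for *Ly6a*, *Clu* and *Ccn2*. The 5 genes have 7 windows, 3 of them of *Il1rn*. GGAATG or its reverse complement CATTCC stood in 5 of these 7 windows, against 12.6% of the 32851 windows of this length in the table. This count is not a test, since *Ankrd1* and *Ccn1* are members as known TEAD targets and 2 of the *Il1rn* windows overlap. *Ankrd1* held 2 copies, 210 and 123 bases before its start, and *Ccn1* held 1 copy 103 bases before. In *Anxa1* and *Yap1* single copies lay 236 and 141 bases before the start. *Il1rn* held none in the window shown and 1 copy 24 bases before the last of its starts, inside the gene. Its first window held TGAGTCA 141 bases before the start, and TGANTCA was found in 6.75% of all windows. The interferon-stimulated response element (GAAANNGAAA, either strand, 2.98% of all windows) and the GAS element (TTCNNNGAA, 7.02%) matched in none of the members' windows. These matches are letters in a short window and say nothing of binding.

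Before the members, the libraries themselves were checked. *Mettl3* (ENSMUSG00000022160) was at 2.70 and 2.71 FPKM with EtOH and DMSO, 2.41 and 2.47 with EtOH and Nec-1, 3.72 and 4.14 with 4-OHT and DMSO, and 3.36 with 4-OHT and Nec-1. FPKM is fragments per kilobase of transcript scaled to the mapped fragments of the library, so it allows for gene length and library size. The gene-level value was thus not lower in the libraries labelled 4-OHT, and since which exons the deletion removes was not analysed here, every direction below rests on the labels. The number of fragments per library is unknown, and from the steps between low values relative depth ran from 0.853 to 1.03. Between 11559 and 12038 genes reached 1 FPKM in a library, and FPKM summed to between 450207 and 498712. The 2 libraries of a group correlated across genes at r of 0.979 to 0.992 on the log2 scale, and genes are not independent replicates.

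The 8 genes spanned a wide range of levels. In EtOH DMSO, the control, *Ly6a* had the highest mean, 16.5 ± 6.21 FPKM (SD, n = 2), and ranked 2887 among all genes. *Yap1* followed at 9.73 ± 0.263, then *Clu* at 5.72 ± 1.37, *Anxa1* at 5.24 ± 0.736, *Ccn1* at 2.98 ± 0.291 and *Il1rn* at 2.74 ± 0.898. Neighbours in this order overlapped for *Clu* and *Anxa1* and for *Ccn1* and *Il1rn*. *Ccn2* and *Ankrd1* stayed under 1 FPKM in the control. The 6 genes at 1 FPKM or more did so in all 7 libraries, so none of them entered the test through the group in which it was high. The other 2 reached that level in 1 library each, a 4-OHT DMSO library, and were left out of the fit.

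**Figure D1:**
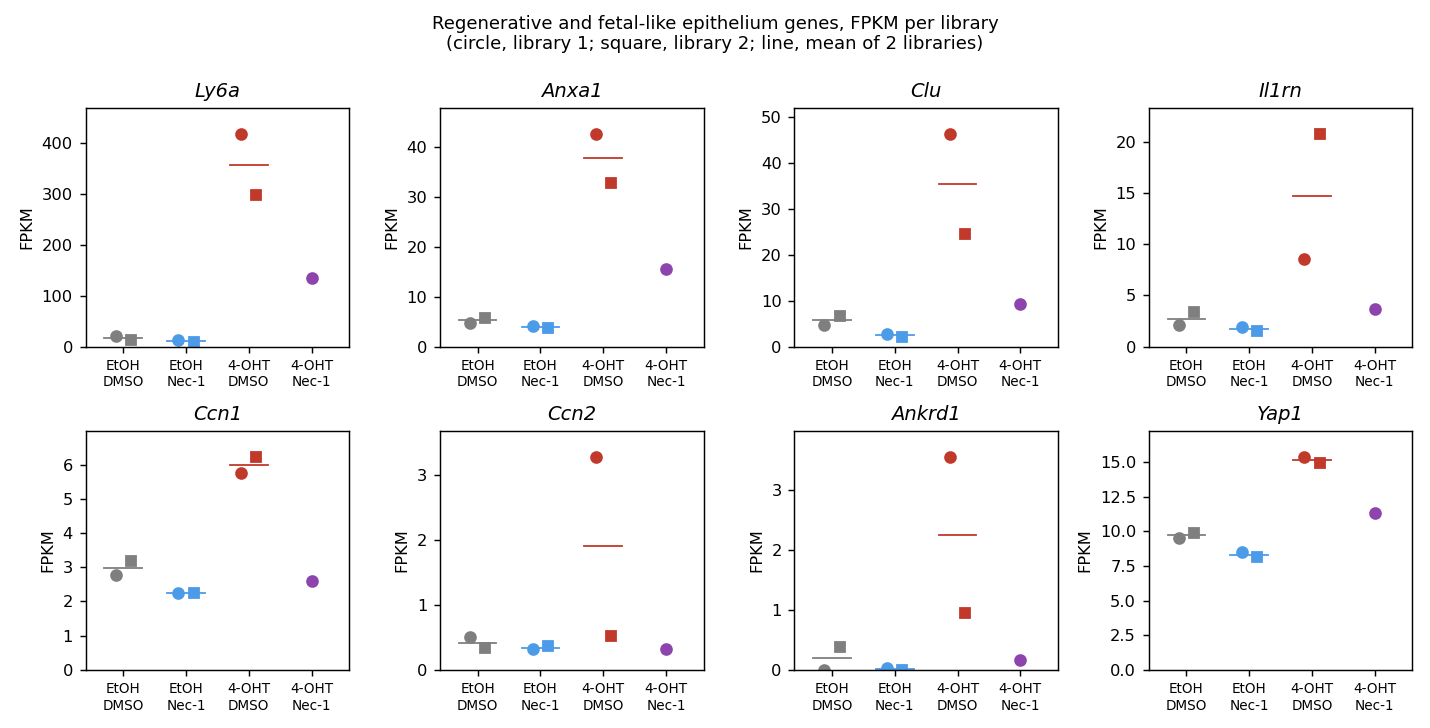
FPKM (y axis, linear, from 0, with its own scale in each panel) of the 8 genes in the 7 libraries by group (x axis), with circles for library 1, squares for library 2 and lines for the mean of 2 libraries. Both 4-OHT DMSO libraries sit above both EtOH DMSO libraries in every panel, and the 4-OHT Nec-1 library sits below both 4-OHT DMSO libraries in every panel.

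The first comparison, 4-OHT DMSO against EtOH DMSO, asks what 4-OHT changed in organoids that carry the inducible deletion. All 6 genes that could be tested were higher, and in all 8 genes both 4-OHT DMSO libraries lay above both EtOH DMSO libraries. Over all 12702 genes tested 24.5% were called higher, and over the 28195 genes above 0 in any library 26.6% were non-overlapping in this direction. The test was limma on log2(FPKM + 1) with Benjamini-Hochberg adjusted p-values and a threshold of 0.05. Adding 1 before the log understates the change of genes at low FPKM. In 4 of the 6 genes (*Ly6a*, *Anxa1*, *Clu* and *Il1rn*), both 4-OHT DMSO libraries were at least 1 log2 unit above each control library, against 4.66% of all genes tested.

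Among the surface markers, *Ly6a* (ENSMUSG00000075602, chr15:74994877-74998031) changed most. This gene encodes Sca-1, a GPI-anchored protein of the cell surface. It was at 20.9 and 12.1 FPKM with EtOH and DMSO, 12.1 and 8.50 with EtOH and Nec-1, 418 and 296 with 4-OHT and DMSO, and 135 with 4-OHT and Nec-1. The 3 libraries labelled 4-OHT stood far above the 4 EtOH libraries, and the EtOH groups met at 12.1 FPKM. The rise in 4-OHT DMSO was 21.7-fold in mean FPKM, or 4.38 ± 0.31 on the log2 scale (SE, limma adjusted p = 0.000697), and the gene moved from rank 2887 to rank 169 of all genes.

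*Anxa1* (ENSMUSG00000024659, chr19:20373434-20390671) encodes annexin A1, a calcium-dependent phospholipid-binding protein that dampens inflammation. It was at 4.72 and 5.76 FPKM with EtOH and DMSO, 4.16 and 3.78 with EtOH and Nec-1, 42.7 and 32.9 with 4-OHT and DMSO, and 15.6 with 4-OHT and Nec-1. No 2 groups overlapped, and the single 4-OHT Nec-1 library lay between the 4-OHT DMSO and the EtOH libraries. The rise was 7.22-fold, or 2.63 ± 0.16 on the log2 scale (SE, limma adjusted p = 0.000482).

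*Clu* (ENSMUSG00000022037, chr14:65968483-65981548) encodes clusterin, a secreted chaperone that marks injury-induced revival stem cells. Its values were 4.75 and 6.69 FPKM with EtOH and DMSO, 2.67 and 2.19 with EtOH and Nec-1, 46.4 and 24.6 with 4-OHT and DMSO, and 9.28 with 4-OHT and Nec-1. Here too the 4 groups did not overlap, but the 2 4-OHT DMSO libraries differed from each other by a factor of 1.88. The rise was 6.21-fold, or 2.39 ± 0.31 on the log2 scale (SE, limma adjusted p = 0.00351).

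*Il1rn* (ENSMUSG00000026981, chr2:24336860-24351491) encodes the IL-1 receptor antagonist, which occupies the receptor without signalling. It was at 2.1 and 3.37 FPKM with EtOH and DMSO, 1.91 and 1.52 with EtOH and Nec-1, 8.54 and 20.8 with 4-OHT and DMSO, and 3.65 with 4-OHT and Nec-1. It was the least even of the called genes between the 4-OHT DMSO libraries, and the 4-OHT Nec-1 value lay just above the higher control value. The rise was 5.36-fold, or 1.97 ± 0.40 on the log2 scale (SE, limma adjusted p = 0.0142). Its call was lost without the first EtOH DMSO library (1.72 on the log2 scale, limma adjusted p = 0.0824) and without the filter on low values (limma adjusted p = 0.0649).

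Of the 3 YAP and TEAD targets among the members, *Ccn1* (ENSMUSG00000028195, chr3:145646971-145649985) was the only one expressed throughout. It encodes a secreted matrix protein that binds integrins. It was at 2.77 and 3.18 FPKM with EtOH and DMSO, 2.25 and 2.24 with EtOH and Nec-1, 5.76 and 6.24 with 4-OHT and DMSO, and 2.59 with 4-OHT and Nec-1. The 4-OHT DMSO libraries stood alone, while the 4-OHT Nec-1 library lay below both control libraries. The rise in 4-OHT DMSO was 2.02-fold, or 0.82 ± 0.10 on the log2 scale (SE, limma adjusted p = 0.00327).

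*Ccn2* (ENSMUSG00000019997, chr10:24595442-24598683), the connective tissue growth factor gene, was at 0.502 and 0.338 FPKM with EtOH and DMSO, 0.317 and 0.360 with EtOH and Nec-1, 3.29 and 0.525 with 4-OHT and DMSO, and 0.320 with 4-OHT and Nec-1. One 4-OHT DMSO library was thus 6.26 times the other, and the lower one was close to the control. *Ankrd1* (ENSMUSG00000024803, chr19:36111965-36119844), which encodes an ankyrin repeat protein of the nucleus and sarcomere, was listed at 0 and at 0.381 FPKM with EtOH and DMSO, at 0.0334 and 0 with EtOH and Nec-1, at 3.56 and 0.941 with 4-OHT and DMSO, and at 0.168 with 4-OHT and Nec-1. Its 4-OHT DMSO libraries differed 3.78-fold in the same direction as those of *Ccn2*. In the fit without the filter neither difference passed, at 0.85 for *Ccn2* and 1.34 for *Ankrd1* on the log2 scale (limma adjusted p = 0.408 and 0.151).

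*Yap1* itself (ENSMUSG00000053110, chr9:7931999-8004638) changed least and most evenly. It was at 9.54 and 9.91 FPKM with EtOH and DMSO, 8.49 and 8.17 with EtOH and Nec-1, 15.4 and 15.0 with 4-OHT and DMSO, and 11.4 with 4-OHT and Nec-1. The groups did not overlap. The rise was 1.56-fold, or 0.59 ± 0.079 on the log2 scale (SE, limma adjusted p = 0.00369). RNA does not show where the YAP protein is or whether it is phosphorylated.

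The 2 4-OHT DMSO libraries were uneven across the members. Library 1 was the higher for 6 of the 8 genes, by 1.03-fold for *Yap1* to 6.26-fold for *Ccn2*, while *Il1rn* and *Ccn1* were higher in library 2 (library 1 at 0.411 and 0.924 of library 2). Genes of the interferon list went the other way, with 2 of 25 higher in library 1, as did epithelial markers (2 of 9). Hippo pathway genes (17 of 20) and crypt stem cell genes (10 of 12) leaned as the members did. A wider list of fetal-like genes was split (11 of 22). The share over all genes was not computed, so 6 of 8 is not a trait of the members. A pair of libraries does not show which is the typical one.

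**Figure D2:**
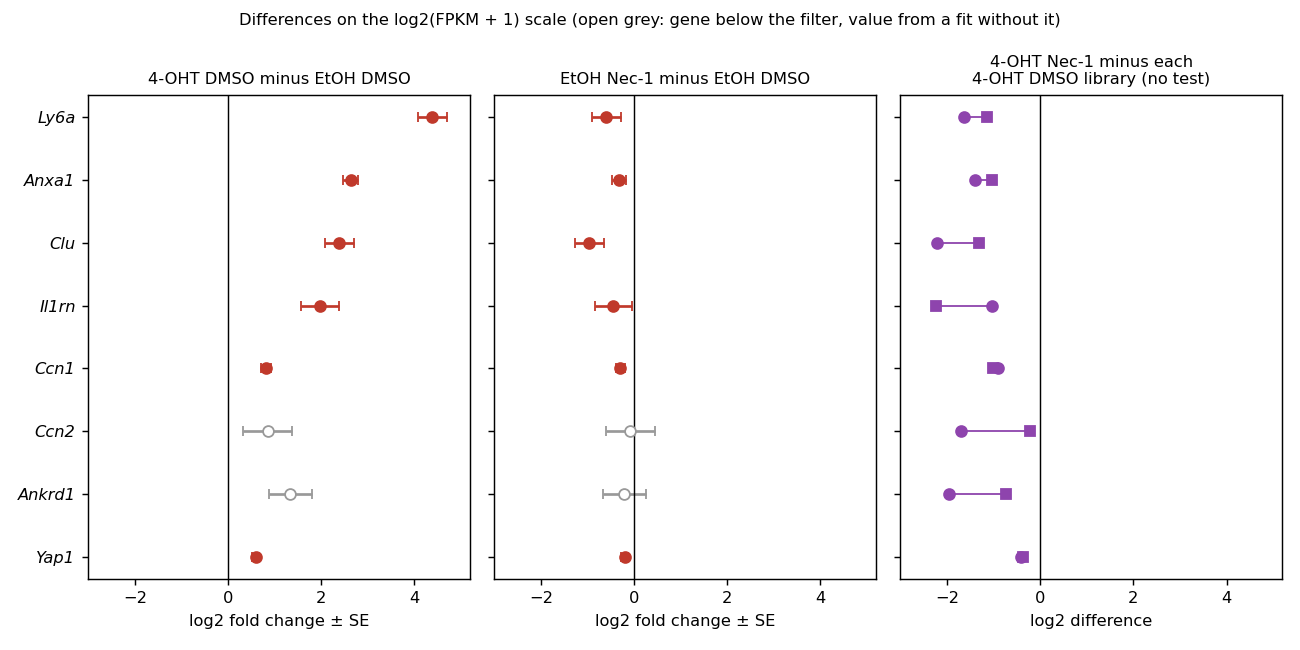
Differences of the 8 genes on the log2(FPKM + 1) scale (x axis), with the fold change and its standard error from limma for 4-OHT DMSO (left) and EtOH Nec-1 (middle) against EtOH DMSO, and the difference of 4-OHT Nec-1 from each 4-OHT DMSO library (right, circle for library 1 and square for library 2). All points are above 0 on the left and below 0 in the middle and on the right, with *Ly6a* at 4.38 the farthest from 0 on the left and *Clu* at -0.96 in the middle.

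The scaling of the libraries bears on the small changes. The median gene moved by 0.0767 on the log2 scale between EtOH DMSO and 4-OHT DMSO, and by -0.0803 after each library was centred on its median. All genes split into 3117 higher and 2120 lower as deposited and into 2213 higher and 3187 lower after centring. The 6 members stayed higher and past the threshold, with centred changes of 4.23 for *Ly6a*, 2.47 for *Anxa1*, 2.23 for *Clu*, 1.81 for *Il1rn*, 0.66 for *Ccn1* and 0.44 for *Yap1*.

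The wider list of fetal-like and regenerative epithelium genes, which includes 4 of the members, moved in the same direction. Of its 20 tested genes (22 measured), 18 rose, none fell and 2 did not pass, while 24.5% of all genes were called higher. The median change was 1.97 against 0.0767 over all genes. This list was chosen with earlier results of these data known, so it is no independent check of the members. The largest rises were those of *Ly6a*, *Plaur* and *Anxa1*. *Plaur*, the urokinase receptor gene, was at 9.41 and 9.38 FPKM in EtOH DMSO and at 65.9 and 67.2 in 4-OHT DMSO, a rise of 2.70 ± 0.076 on the log2 scale (SE, limma adjusted p = 0.000256). With 1 FPKM required in every library 17 genes were left, of which 15 rose, with a median of 1.97. The 18 rises were called under both other scalings, but 14 were without the first EtOH DMSO library, when *Il1rn*, *Il33*, *Msln* and *Basp1* did not pass (limma adjusted p of 0.0605 to 0.0925), and 15 with no filter on low values. *Emp1* and *Lamb3* were the 2 that did not pass, and *Emp1* was uneven in both EtOH groups, at 28.6 and 6.89 FPKM in EtOH DMSO and 5.88 and 28.5 in EtOH Nec-1.

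**Figure D3:**
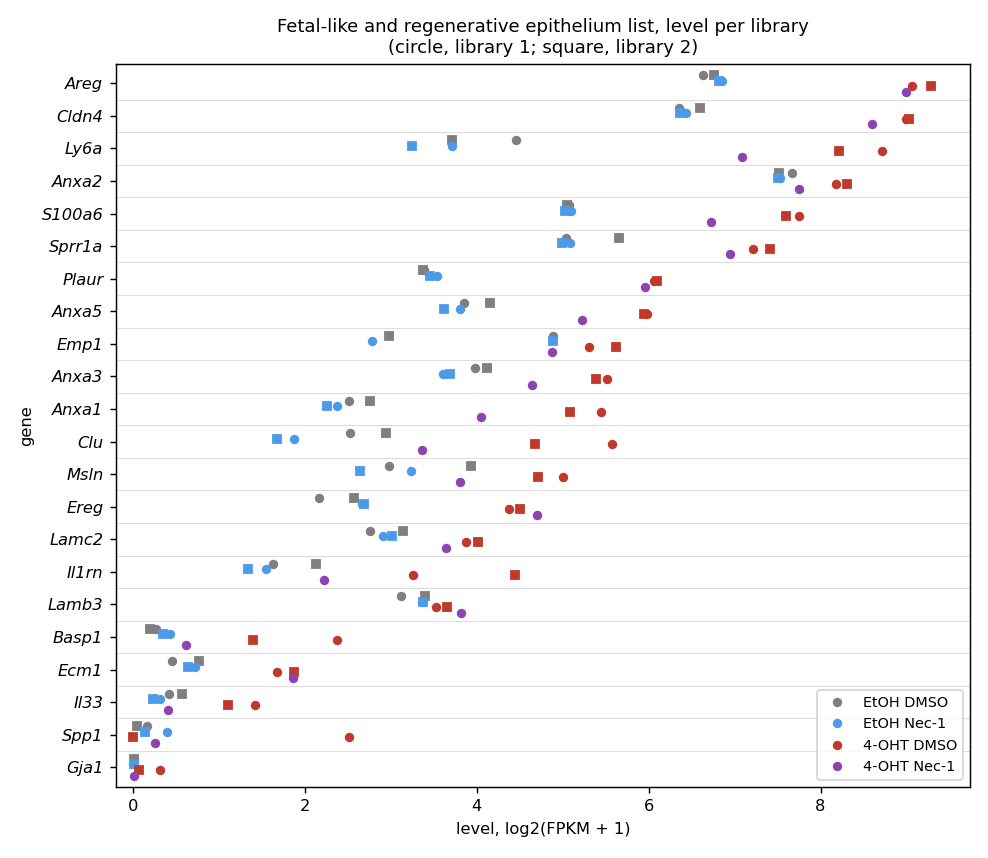
Level of the 22 genes of the fetal-like and regenerative epithelium list as log2(FPKM + 1) (x axis) in each library, ordered by their mean in 4-OHT DMSO (y axis), with 1 colour per group and circles and squares for libraries 1 and 2. The 4-OHT DMSO points lie right of the EtOH points for most genes, and the 4-OHT Nec-1 point lies close to them for *Areg*, *Plaur*, *Ereg* and *Ecm1* but well to their left for *Clu*, *Ly6a* and *Anxa1*.

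A wider list of YAP and TEAD targets held fewer genes at testable levels. Of 22 list genes measured 10 were tested, of which 5 rose, 1 fell and 4 did not pass, with a median of 0.459. The 3 largest rises were those of *F3* (tissue factor, 23.2 and 29.8 FPKM in EtOH DMSO and 110 and 124 in 4-OHT DMSO, 2.11 on the log2 scale), *Ccn1* and *Myof* (0.63). *Gadd45a*, a DNA damage response gene, fell by 0.73 on the log2 scale, a call lost without either EtOH DMSO library (limma adjusted p = 0.0994 and 0.0883). The call of *Myof* was lost without the first EtOH DMSO or the second 4-OHT DMSO library (limma adjusted p = 0.0776 and 0.0536). Under median centring the counts were 4 and 1, since *Lats2* no longer passed. They were 2 and 0 without the first EtOH DMSO library, and 3 and 1 without either EtOH Nec-1 library or the first 4-OHT DMSO library. With 1 FPKM required in every library, 3 of 7 rose and 1 fell.

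Within the Hippo pathway itself, 6 of 16 tested genes rose and 1 fell, with a median of 0.0758, close to that of all genes. The direction of this list depended on the scaling: after median centring 3 rose and 3 fell, with a median of -0.0812. Without the first EtOH DMSO, the first 4-OHT DMSO or either EtOH Nec-1 library 3 rose and 1 fell, and 4 rose without the second EtOH DMSO or the second 4-OHT DMSO library. *Lats1*, the kinase that inhibits YAP, rose by 0.72 on the log2 scale, *Yap1* by 0.59 and *Stk4* (the MST1 kinase) by 0.57, and all 3 stayed past the threshold after centring. Without the first EtOH DMSO library *Stk4* did not pass (limma adjusted p = 0.0558). *Mob1b*, a cofactor of the LATS kinases, fell by 0.45. *Wwtr1*, which encodes TAZ, the paralog of YAP, was at 2.61 and 2.92 FPKM in EtOH DMSO and at 2.13 and 2.21 in 4-OHT DMSO, and did not pass (-0.25, limma adjusted p = 0.139). Of the TEAD genes, *Tead3* was at 2.43 and 3.47 FPKM in EtOH DMSO and 2.84 and 2.76 in 4-OHT DMSO, and *Tead1* was uneven in EtOH DMSO, at 3.28 and 0.436, with 4.31 and 3.75 in 4-OHT DMSO. Neither passed. *Tead2* stayed under 1 FPKM throughout, and *Tead4* reached 1.25 FPKM in a single 4-OHT DMSO library.

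**Figure D4:**
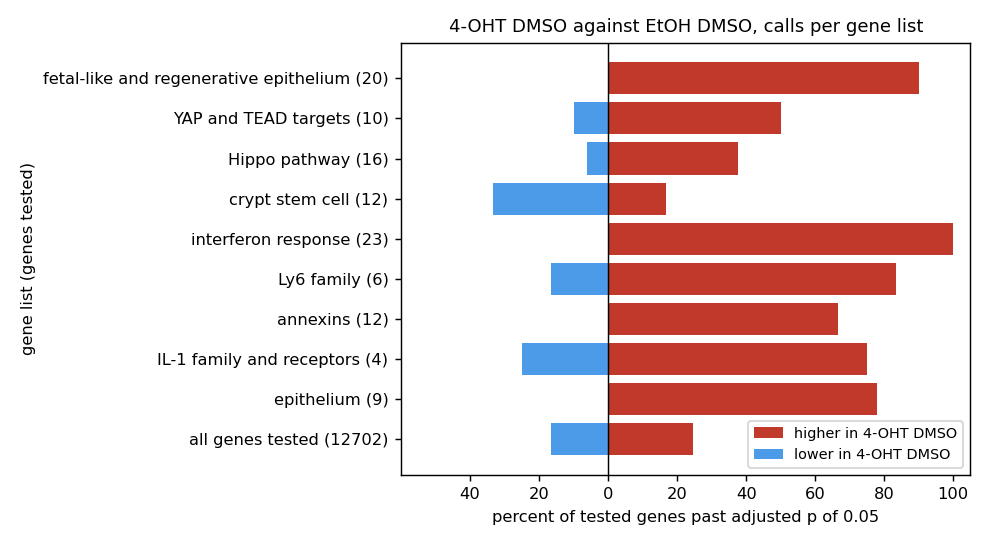
Percent of the tested genes of each list (y axis, number tested in brackets) that were called higher (right of 0) or lower (left of 0) in 4-OHT DMSO than in EtOH DMSO by limma at an adjusted p of 0.05 (x axis). The interferon list is at 23 of 23 and the fetal-like list at 18 of 20, counts that include genes above the filter only through the 4-OHT libraries (11 of 11 and 15 of 17 with 1 FPKM required in every library), and 24.5% of all genes were higher.

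The families of the members were then read. Of 12 annexin genes 8 rose and none fell, and 7 of the 9 with 1 FPKM in every library rose. *Anxa10* (4.77 and 6.18 FPKM in EtOH DMSO, 50.7 and 57.1 in 4-OHT DMSO) and *Anxa8* (0.826 and 0.622, then 12.5 and 10.5) rose by 3.09 and 2.86 on the log2 scale, more than *Anxa1* at 2.63. *Anxa5* rose by 1.97, *Anxa3* by 1.40, *Anxa7* by 0.75, *Anxa2* by 0.66 and *Anxa4* by 0.55. *Anxa6*, *Anxa9*, *Anxa11* and *Anxa13* did not pass. *Anxa13*, the most abundant annexin in EtOH DMSO, was at 365 and 345 FPKM there and at 357 and 374 in 4-OHT DMSO.

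In the Ly6 family 5 of 6 tested genes rose and 1 fell, or 3 and 1 of the 4 that had 1 FPKM in every library. Next to *Ly6a* stood *Ly6e*, itself an interferon-responsive gene, at 11.7 and 14.4 FPKM in EtOH DMSO and 144 and 213 in 4-OHT DMSO (3.66 on the log2 scale), and *Ly6g* (0.318 and 1.08, then 7.93 and 13.6, a rise of 2.79). *Ly6c1* rose by 1.70 and *Ly6d* by 1.69, and *Ly6g6d* fell by 0.47, a call that was lost without any 1 of the 6 other libraries than 4-OHT Nec-1 (limma adjusted p of 0.0502 to 0.107). *Ly6g6c* and *Ly6g6e* reached 1 FPKM in a single library each. *Ly6a*, *Ly6c1*, *Ly6c2*, *Ly6g* and *Ly6i* are close copies, so fragments may be shared between them and their separate values are uncertain.

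No CCN gene other than *Ccn1* and *Ccn2* reached 1 FPKM in any library. Around *Il1rn*, the IL-1 genes were low. *Il1a* did not exceed 0.160 FPKM, *Il1b* did not exceed 0.0506, and the receptor gene *Il1r1* did not exceed 0.157. *Il33*, an alarmin, rose by 0.77 on the log2 scale (0.334 and 0.476 FPKM in EtOH DMSO, 1.67 and 1.14 in 4-OHT DMSO), and *Il18bp*, a decoy for IL-18, by 1.04. *Il18* fell by 1.11, from 23.6 and 24.8 FPKM to 9.66 and 11.9. *Il33* and *Il18bp* reached 1 FPKM only in libraries labelled 4-OHT, and entered the test through them. With 1 FPKM required in every library, 2 genes of the list were tested, of which 1 rose and 1 fell. Without the first EtOH DMSO library *Il33* and *Il18bp* did not pass (limma adjusted p = 0.0801 and 0.0507), nor did *Il33* without the second (0.0513). With *Il1rn* also lost, none of the list was then called higher without the first.

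Interferon response genes were also higher in 4-OHT DMSO. All 23 tested genes of the list (25 measured) rose, but 12 of them were not at 1 FPKM in every library. Each of the 11 that were rose, with a median change of 2.44. The summed FPKM of the list went from 65.8 and 74.3 in EtOH DMSO to 1260 and 1700 in 4-OHT DMSO, and stood at 212 in 4-OHT Nec-1. *Isg15*, a ubiquitin-like modifier, was at 1.15 and 0.578 FPKM in EtOH DMSO and at 331 and 469 in 4-OHT DMSO. *Ifit3* went from 0.719 and 0.482 to 33.6 and 77.2, and *Ifit1* from 1.44 and 1.45 to 43.4 and 68.2. The part of these genes in the rise of *Ly6a* was not tested.

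Crypt stem cell genes moved both ways. Of 12 tested, 2 rose, 4 fell and 6 did not pass, with a median of -0.343. *Smoc2* fell by 1.3 on the log2 scale (12.1 and 11.8 FPKM to 4.13 and 4.4), *Olfm4* by 0.87 (24.3 and 21.4 to 15.7 and 9.22), *Rnf43*, a brake on Wnt receptors, by 0.66 and *Lgr5*, the defining marker of crypt base stem cells, by 0.65 (1.26 and 1.52 to 0.565 and 0.468). *Cd44*, a hyaluronan receptor that is also raised in regenerating epithelium, rose by 1.98 (3.85 and 4.06 to 18.0 and 19.0), and *Znrf3* by 0.56, a call lost after median centring (limma adjusted p = 0.0528) and without the first 4-OHT DMSO or either EtOH DMSO library (0.0685, 0.0841 and 0.0608). The call of *Olfm4* was lost without any 1 of the 4 EtOH libraries (limma adjusted p of 0.0638 to 0.149), and those of *Lgr5* and *Rnf43* without the second EtOH DMSO library (0.059 and 0.0511). Without that library 1 of the 12 genes fell. *Lgr5* reached 1 FPKM only in the EtOH DMSO libraries, so it entered the test through the group in which it was high. With 1 FPKM required in every library, 9 genes were tested, of which 2 rose and 3 fell. *Znrf3*, at 0.998 FPKM in EtOH DMSO library 1, was not among the 9. At least 1 of these 2 rises was thus of a gene that did not pass with the main filter.

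Markers of other cell types were read in the same libraries. Epithelial markers were high throughout, with a summed FPKM of 3260 to 4870 over 9 genes, and 7 of the 9 were called higher in 4-OHT DMSO, with *Cdh1* at 0.66, *Krt20* at 0.63 and *Vil1* at 0.51 on the log2 scale. Only 3 of the 7, *Cdh1*, *Krt20* and *Vil1*, kept their calls after median centring, and 1 other marker was then called lower. Without any 1 of the EtOH libraries 4 of the 9 were called higher. Of 8 fibroblast genes *Fbln1* alone reached 1 FPKM (7.97 to 12.2), and it fell by 0.47, while *Lum* was at 0 in every library and *Col1a1*, *Col3a1* and *Pdgfra* did not exceed 0.0878 FPKM. Of 8 immune genes 2 reached 1 FPKM. *Cd68* rose from 0.774 and 2.01 FPKM to 5.69 and 7.72 (1.73 on the log2 scale), *Itgam* went from 1.96 and 1.19 to 0.315 and 0.917 without passing, and *Ptprc*, which encodes the pan-leukocyte antigen CD45, did not exceed 0.0497. The summed immune list ran from 2.81 to 4.08 FPKM in the EtOH libraries and from 6.52 to 8.72 in those labelled 4-OHT. Endothelial and muscle genes summed to at most 0.207 and 0.194 FPKM. In bulk RNA, more cells of a kind and more RNA per cell cannot be told apart.

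The second comparison, EtOH Nec-1 against EtOH DMSO, asks what the inhibitor did without 4-OHT. None of the 6 tested members was called, and 0.0472% of all genes were called lower. Over all genes limma called 22 higher and 6 lower, with 1689 at an unadjusted p under 0.05. The members' differences were all negative: -0.96 ± 0.31 for *Clu*, -0.60 ± 0.31 for *Ly6a*, -0.44 ± 0.40 for *Il1rn*, -0.32 ± 0.16 for *Anxa1*, -0.29 ± 0.10 for *Ccn1* and -0.20 ± 0.079 for *Yap1* on the log2 scale (SE). Their limma adjusted p-values ran from 0.321 to 0.669. The median over all genes was -0.0942. In 5 of the 8 genes (*Anxa1*, *Clu*, *Il1rn*, *Ccn1* and *Yap1*) both EtOH Nec-1 libraries lay below both EtOH DMSO libraries, against 25.5% of all genes. No gene of the fetal-like, YAP target, Hippo, stem cell or interferon lists was called by limma in this comparison.

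The third comparison sets the single 4-OHT Nec-1 library beside the 4-OHT DMSO libraries, and addresses whether the RIPK1 inhibitor altered what 4-OHT had raised. With 1 library the difference has no replicate check and no p-value is given. This comparison and the first share the 4-OHT DMSO libraries, so a member that chance placed high there would look raised in the one and lowered in the other. All 8 members were below each 4-OHT DMSO library, as were 50.6% of the 12036 genes compared. *Ccn2* and *Ankrd1* averaged 1 FPKM here only through 4-OHT DMSO library 1 (3.29 and 3.56 FPKM). The filter thus favoured a lower 4-OHT Nec-1 value for them, and their place in this count is no support. *Clu*, *Ly6a*, *Anxa1* and *Il1rn*, 4 of the 8, were at least 1 log2 unit below each, against 1.21% of all genes.

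The differences of 4-OHT Nec-1 from the first and second 4-OHT DMSO library were -2.21 and -1.32 on the log2 scale for *Clu*, -1.04 and -2.23 for *Il1rn*, -1.62 and -1.13 for *Ly6a* and -1.40 and -1.03 for *Anxa1*. They were -0.91 and -1.01 for *Ccn1* and -0.41 and -0.37 for *Yap1*. *Ankrd1* (-1.96 and -0.73) and *Ccn2* (-1.70 and -0.21) were far below library 1 alone. The median over all genes was -0.0892. The number of members at least 1 log2 unit below depends on where *Anxa1*, *Il1rn* and *Ly6a* fall near that line. It was 2 (*Clu* and *Ly6a*) after median centring, against 0.955% of all genes. After upper quartile scaling it was 1 (*Clu*), against 0.997%, while all 8 stayed below each library.

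The share of the 4-OHT rise that was still there with Nec-1, taken on mean FPKM above EtOH DMSO, differed between the members. It was 34.8% for *Ly6a*, 31.7% for *Anxa1* and 29.8% for *Yap1*, 11.9% for *Clu* and 7.66% for *Il1rn*. For *Ccn1*, *Ccn2* and *Ankrd1* the 4-OHT Nec-1 value was under the EtOH DMSO mean. For *Ankrd1*, at 0.168 FPKM, it lay between the EtOH DMSO libraries (0 and 0.381), all of them low values. The order of *Clu* and *Il1rn* turned with the 4-OHT DMSO library used, a check added after the values were seen: against library 1 alone they stood at 8.74% and 15.7%, and against library 2 alone at 18.8% and 5.06%. Against single libraries *Ly6a* stood at 29.5% and 42.3%, *Anxa1* at 27.6% and 37.4% and *Yap1* at 28.7% and 31%. These shares rest on 1 library and on group means of 2, and carry no error. They also depend on the baseline. Among the 6 tested members, mean FPKM in EtOH Nec-1 was from 0.425 (*Clu*) to 0.857 (*Yap1*) of that in EtOH DMSO. Shares above EtOH Nec-1 would differ and were not computed.

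Set beside EtOH Nec-1, which had the inhibitor but no 4-OHT, the 4-OHT Nec-1 library was higher for all 6 members compared, as were 49.9% of 11746 genes. It was at least 1 log2 unit above each EtOH Nec-1 library for 3, *Ly6a*, *Anxa1* and *Clu*, against 4.24% of all genes. The mean difference was 3.61 on the log2 scale for *Ly6a* (13.1-fold in FPKM), 1.74 for *Anxa1*, 1.59 for *Clu*, 0.78 for *Il1rn* and 0.40 for *Yap1*. For *Ccn1* it was 0.15, and *Ccn2* at 0.320 FPKM lay within the EtOH Nec-1 range of 0.317 to 0.360. *Ankrd1* at 0.168 FPKM lay above both EtOH Nec-1 libraries (0.0334 and 0), with all 3 values well under 1 FPKM.

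Other genes of the fetal-like list differed in how far they came down. Of 21 compared, 17 were below each 4-OHT DMSO library, 4 of them (the members *Ly6a*, *Anxa1*, *Clu* and *Il1rn*) by at least 1 log2 unit, and the median was -0.745. Over all genes compared, 50.6% were below each library and 1.21% by at least 1 log2 unit. *Basp1* (-1.26) and *Msln* (-1.05) differed about as much from the 4-OHT DMSO mean as *Anxa1* (-1.22), but were not 1 log2 unit below each library. *Plaur* was at 61.1 FPKM with Nec-1 and the growth factor gene *Areg* at 508, against 65.9 and 67.2 and against 533 and 621 in 4-OHT DMSO. *Ereg*, a related growth factor gene, was at 25 against 19.7 and 21.7, and *Ecm1* at 2.62 against 2.19 and 2.65. *Areg*, *Ereg* and *Ecm1* were picked out after their values were seen. Interferon genes were lower by more, with 23 of 24 below each 4-OHT DMSO library, 19 of them by at least 1 log2 unit, and a median of -2.06. Of the YAP and TEAD targets 9 of 11 were below each and of the Hippo genes 14 of 15, with medians of -0.308 and -0.148. These counts include genes that averaged 1 FPKM only through the 4-OHT DMSO libraries, for which the filter favoured a lower 4-OHT Nec-1 value. Examples are *Oas2*, *Mx1* and *Gbp3* of the interferon list, at 0.758, 0.476 and 0.116 FPKM in 4-OHT Nec-1. In the fetal-like list *Il33* and *Basp1* are such genes, at 0.326 and 0.536 FPKM there.

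The genes whose log2(FPKM + 1) followed each member most closely over the 7 libraries were taken from about 7013 genes that averaged 5 FPKM or more. For *Ly6a* these were *Marcksl1* (r = 0.999), *Nxt1* and *Cdk9*, for *Anxa1* *AW112010* (r = 0.998), *Foxa1* and *Cpsf2*, and for *Clu* *Pold3* (r = 0.999), *Ahsa1* and *Itga2*. *Yap1* was followed by *Pls3* (r = 0.999), *Anxa3* and *Rcn2*, *Ccn1* by *S100a14* (r = 0.994), *Plekha2* and *Wdr73*, and *Il1rn* by *Gm26315* (r = 0.989), *Tpm3-rs7* and *Gm24447*. The 7 points fall into 4 groups that share their treatment, so any gene with the same group levels scores high: 62 genes reached r of 0.99 with *Ly6a*, 56 with *Anxa1*, 17 with *Yap1*, 10 with *Clu*, 3 with *Ccn1* and none with *Il1rn*.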

How the data were processed

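RNA was extracted from organoids, and libraries were sequenced on an Illumina platform. The authors deposited FPKM values per Ensembl gene. Their processing notes name HISAT2 2.1.0, StringTie 1.3.3b and mm10, without roles, and whether counting used strand is not given in the sources used here. A table of 3 libraries repeated 2 columns of the single files and added none. A further 2 samples (CUT&Tag) were not analysed here.

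Of 54838 gene IDs, 54723 had a symbol. limma 3.58.1 (R 4.3.3) was fitted with a mean-variance trend to log2(FPKM + 1) over the 12702 genes that reached 1 FPKM in 2 or more libraries, with 1 mean per group over all 7 libraries. Benjamini-Hochberg adjustment covered all genes tested, with a threshold of 0.05, and the script was checked on simulated data. With no statement that libraries came from separate cultures or mice, p-values measure only the spread between these libraries. The 4-OHT Nec-1 library (1) was described without a test, over genes that averaged 1 FPKM or more in the libraries compared. Depth per library is unknown, so no counting error is given.

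Members and gene lists were chosen with earlier results of these data known. A further member of the set is not reported here. Named in each list were the 3 largest rises and the 3 largest falls past the threshold, any gene called with Nec-1 in EtOH, relatives of members at 1 FPKM or more, *Mettl3*, and the 3 genes most like each member. Alternatives were another scaling, pseudocount, filter or trend, a replicate block, only the compared libraries, and each library left out. Python 3.11.15, pandas 2.3.3 and matplotlib 3.10.9 were used.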

Additional observations from a re-analysis of the deposited data

Results flagged for a closer look

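None of the 8 members moved in opposite directions with Nec-1 in EtOH and in 4-OHT organoids. Among the other genes named, those below did so in every library, and the difference between the effects was not tested for any of them. *Rnf43* was lower with Nec-1 in EtOH (-0.25 on the log2 scale) and higher in 4-OHT (0.20), and so were *Anxa13* (-0.091 and 0.15) and *Anxa4* (-0.075 and 0.035). *Krt20* was higher with Nec-1 in EtOH (0.41) and lower in 4-OHT (-0.17), as were *Areg* (0.14 and -0.18) and *Plaur* (0.11 and -0.12). So was *Basp1* (0.16 and -1.26), which was at 0.348 FPKM or less in every EtOH library. The 4-OHT values rest on 1 library with Nec-1. No group had the 4 libraries that a check for outlying samples needs.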

How the results depend on the processing

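The count of members past the limma threshold was 6 in 4-OHT DMSO against EtOH DMSO and lay between 5 and 6 in 16 alternatives, *Il1rn* being the gene lost. In EtOH Nec-1 against EtOH DMSO it was 0 in all 16, and with the replicate block it was 6 and 0. Same-numbered libraries showed no shared deviation: their deviations correlated across genes at -0.0402, 0.00646 and -0.012. Whether they were prepared as pairs is not stated. The number of members at least 1 log2 unit below each 4-OHT DMSO library was 4, against 1.21% of all genes. It became 2 with median centring (0.955% of all genes) and 1 with upper quartile scaling (0.997%). It was 6 with a pseudocount of 0.1 or 0.25 (2.12% and 1.93%). Without 4-OHT DMSO library 1 it was 5 (4.37%), and without library 2 it was 6 (2%). Leaving a library out also loosens the rule, since a gene then has to be below 1 library only. The cause was not tested. No sign of a tested member changed. Over all genes, EtOH Nec-1 against EtOH DMSO gave 22 higher and 6 lower, 59 and 20 with only its 4 libraries, 57 and 18 without either 4-OHT DMSO library, 37 and 6 with upper quartile scaling and 6 and 2 with no filter. The 4-OHT comparison gave 3117 higher, and 2117 without the first EtOH DMSO library. In EtOH Nec-1 against EtOH DMSO fewer genes were called without either EtOH Nec-1 library. The median change there was -0.0844 without the first and -0.1 without the second, against -0.0942 with both. With the replicate block 3 Hippo genes rose, against 6.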
